A study of Mus musculus with 12 samples.

Results

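The genes described here are 10 that encode molecules with which regulatory T cells (Treg) restrain other cells: Tgfb1, Lrrc32, Itgb8, Il10, Ebi3, Fgl2, Entpd1, Nt5e, Lag3 and Gzmb. They were taken by symbol from the 23337 gene symbols counted in each library, and all 10 were among the 12038 genes with enough reads to be tested. Treg hold back immune responses by several routes. They secrete inhibitory cytokines, they store latent TGF-beta on their surface and release it by integrins, they turn extracellular ATP into adenosine, they engage antigen-presenting cells through inhibitory receptors, and they can kill by granules. Natural Treg acquire these programmes in the animal, whereas induced Treg acquire Foxp3, the transcription factor that defines the lineage, when a conventional CD4 T cell is stimulated in the presence of TGF-beta.

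RNA of natural Treg (nTreg) and induced Treg (iTreg) from C57BL/6 mice aged 8 weeks was sequenced in 12 libraries, 3 for each of 4 groups. The nTreg were CD4+GFP+ cells sorted from spleen and lymph nodes. The iTreg were GFP+ cells isolated after CD4 T cells had been kept for 5 days with IL2 and TGFbeta. Mice labelled WT were Hrd1 +/flox with FoxP3-cre+-GFP and mice labelled KO were Hrd1 flox/flox with FoxP3-cre+-GFP, so that both carried the Cre and at least 1 floxed allele, and no group had neither. Cre is driven by Foxp3, so deletion is limited to cells that have turned Foxp3 on. Hrd1, encoded by Syvn1, is an enzyme of the endoplasmic reticulum membrane that attaches ubiquitin to misfolded proteins and so marks them for degradation. The labels do not say whether libraries of a group came from separate mice, so that every p-value measures the spread between these libraries, which may be technical.

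Values are TMM-normalised CPM (each gene's count scaled to a common library size), listed for replicates 1, 2 and 3 in that order, and group values are mean ± SD (n = 3). Total counts ran from 6763458 to 15462894 per library. A gene was called where the adjusted p of edgeR's quasi-likelihood test (Benjamini-Hochberg over all tested genes) was under 0.05, and a log2 difference is given with its standard error (SE). In bulk RNA, fewer cells that express a gene and less RNA per cell cannot be told apart.

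Syvn1 went against the KO label in nTreg. It stood at 78.8 ± 7.33 CPM in nTreg labelled WT and 137 ± 7.94 in nTreg labelled KO, and at 78.3 ± 20.5 and 63.6 ± 9.26 in the corresponding iTreg. The counts cover the whole gene, so reads from outside a deleted stretch are included, and directions below follow the labels. Foxp3 was present in all 12 libraries, and 7 Treg and CD4 T cell markers summed to between 3992 and 5399 CPM. Between the cell types 6 of these 7 were called lower and 1 higher in iTreg with each label: with the WT label the mean of Foxp3 was 621 CPM in nTreg and 359 in iTreg, that of Ikzf2 1091 and 25.5, and that of Il2ra 838 and 3140. The part of these changes in the results between cell types was not tested. Over all tested genes, 65.2% were called between the cell types with the WT label and 61.9% with the KO label. Xist, which is transcribed from the inactive X chromosome of female cells, was high in 1 library each of nTreg WT, nTreg KO and iTreg WT and at most 0.209 CPM in iTreg labelled KO, so that the libraries with it were not spread evenly over the labels of iTreg. The second iTreg library labelled KO stood apart: 353 tested genes lay more than 2-fold outside all 5 other iTreg libraries, against 13 to 132 genes for any other library within its cell type. It had the lowest Foxp3, at 191 CPM, and the highest or lowest iTreg value for 6 of the 10 genes. By that last count it stood out little, as the third WT-labelled iTreg library was highest for 2 of the 10 and lowest for 3. Macrophage and monocyte markers (10 genes, Lyz2 and C1qa among them) summed to 58.2 to 231 CPM in nTreg labelled WT, 44.2 to 505 in nTreg labelled KO and 3.65 to 6.02 in iTreg, where Lyz2, C1qa and C1qc were at 0 in all 6 libraries. In nTreg the sums were highest in the libraries numbered 2 of both labels, where Csf1r alone reached 95.3 (WT) and 195 CPM (KO). Not all markers went that way: Lyz2 was highest in the libraries numbered 1, at 5.17 (WT) and 14.0 CPM (KO).

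The genes differed between nTreg and iTreg far more than between labels. All iTreg had been cultured with IL2 and TGFbeta and all nTreg were sorted from tissue, so cell type and culture cannot be told apart. In WT-labelled cells 9 of the 10 were called, 3 higher and 6 lower in iTreg, where 65.2% of all tested genes were called (34.8% higher and 30.4% lower). In KO-labelled cells 8 were called, 4 in each direction, where 61.9% of all tested genes were called (32.1% higher and 29.8% lower). Since most genes differed between these cell types, the sizes say more than the counts: the median size of the 10 log2 differences was 1.61 in WT-labelled cells, beside 0.676 over all tested genes, and 1.41 in KO-labelled cells, beside 0.609. Itgb8, Fgl2, Lrrc32 and Ebi3 were called lower in iTreg with both labels, and Tgfb1, Nt5e and Gzmb higher. Il10 and Entpd1 passed as lower with the WT label and Lag3 as higher with the KO label, and for none of these 3 did the difference between the labels pass. The libraries of both cell types did not overlap for 9 of the 10 genes in WT-labelled cells, where 71.3% of all tested genes did not overlap, and for 8 in KO-labelled cells, beside 66.9%.

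**Figure D1:**
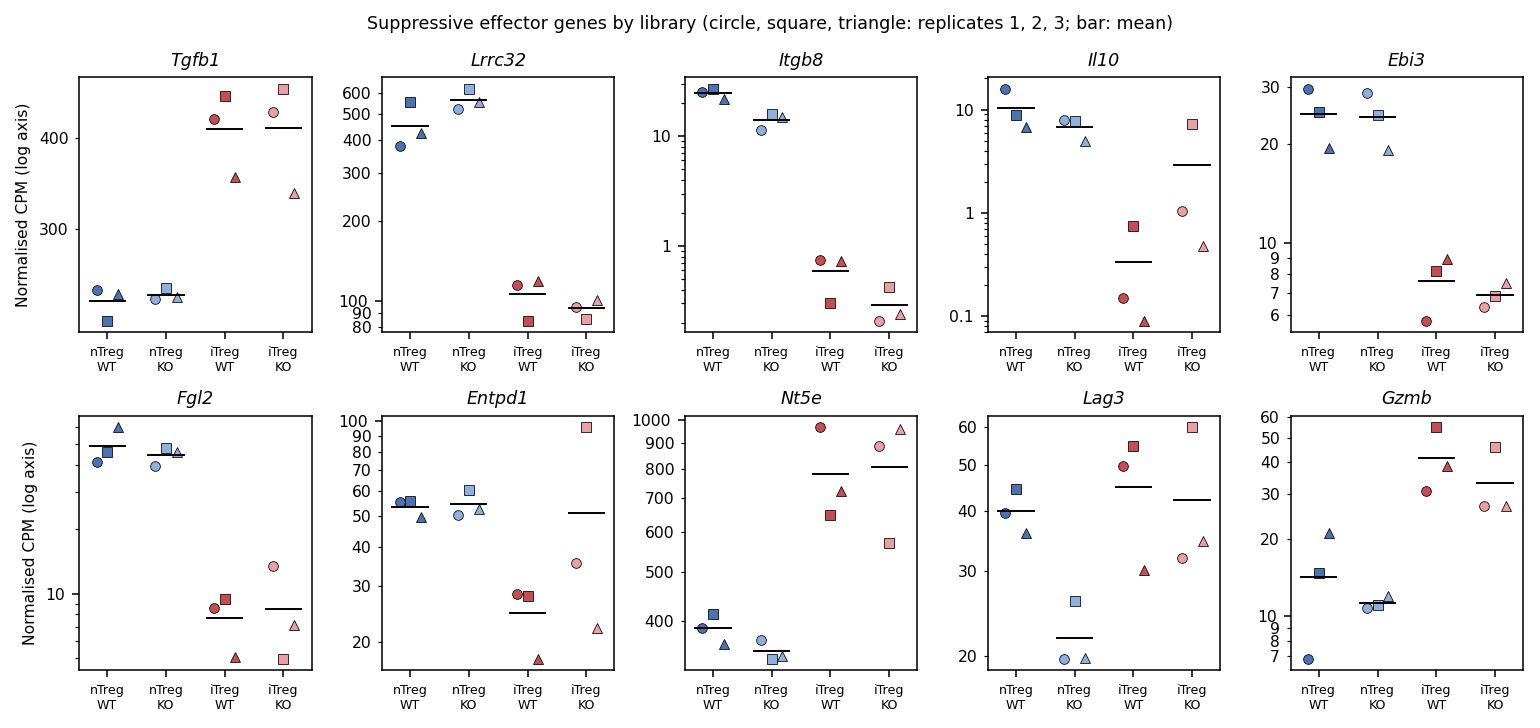
Normalised CPM (log axis) of each of the 10 genes in the 12 libraries, with 1 panel per gene. Circles, squares and triangles are replicates 1, 2 and 3, and bars are group means. Itgb8 and Fgl2 lie lower in every iTreg library than in any nTreg library, and the square of iTreg labelled KO is far above its group for Il10 and Entpd1.

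TGF-beta is made as a latent complex that GARP, the product of Lrrc32, holds on the Treg surface, and the integrin beta 8 chain, the product of Itgb8, pairs with the alpha V chain to release the active cytokine. Of these 3 genes the cytokine was higher in iTreg while its anchor and its activating integrin were lower. Tgfb1 (ENSMUSG00000002603.15, chr7:25687002-25705077 on the plus strand, mm10) was at 248, 225 and 245 CPM in nTreg labelled WT and at 241, 249.2 and 243 in nTreg labelled KO. In iTreg it was at 424, 457 and 354 CPM in libraries labelled WT and at 434, 466 and 337 in those labelled KO. The 6 nTreg values lay within a narrow band, and every iTreg value was above all of them. Tgfb1 was higher in iTreg by 0.78 on the log2 scale (SE 0.13, adjusted p = 2.2e-04) in WT-labelled cells and by 0.75 (SE 0.13, adjusted p = 3.3e-04) in KO-labelled cells.

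Lrrc32 (ENSMUSG00000090958.2, chr7:98489283-98502181, plus strand) showed the opposite order. Its levels were 379, 557 and 424 CPM in nTreg labelled WT and 522, 621 and 555 in nTreg labelled KO. In iTreg they were 114, 84.4 and 119 CPM (WT label) and 95.4, 85.9 and 101 (KO label). All iTreg libraries were below all nTreg libraries by a wide gap. The log2 difference of iTreg against nTreg was -2.10 (SE 0.17, adjusted p = 6.4e-07) in WT-labelled cells and -2.59 (SE 0.17, adjusted p = 2.5e-07) in KO-labelled cells.

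Itgb8 (ENSMUSG00000025321.14, chr12:119158022-119238802, minus strand) had the widest range of the 10 genes. It was at 24.96, 26.8 and 21.9 CPM in nTreg labelled WT and at 11.2, 15.9 and 14.998 in nTreg labelled KO. The iTreg libraries had 0.750, 0.301 and 0.723 CPM (WT label) and 0.209, 0.422 and 0.238 (KO label). Few reads stand behind the iTreg values: 22 counts in 3 WT-labelled libraries (95% Poisson interval 13.8 to 33.3) and 9 in 3 KO-labelled ones (4.12 to 17.1), against 593 and 489 in nTreg, and these intervals cover counting error only. The log2 difference of iTreg against nTreg was -5.36 (SE 0.31, adjusted p = 6.0e-08) with the WT label and -5.57 (SE 0.34, adjusted p = 1.7e-07) with the KO label.

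Of 14 other genes of TGF-beta storage and activation, 12 were tested. In WT-labelled cells 5 were called higher and 3 lower in iTreg (median log2 difference 0.34, beside 0.05 over all genes), and in KO-labelled cells 6 and 3. With the 2 labels 65.2% and 61.9% of all tested genes were called. Furin, the protease that cleaves the TGF-beta precursor, was among the higher ones, by 1.96 on the log2 scale (SE 0.19, adjusted p = 2.9e-06) with the WT label and 1.90 (SE 0.19, adjusted p = 4.8e-06) with the KO label. Itgav, the alpha V chain with which Itgb8 pairs, was higher in iTreg by 0.46 (SE 0.18, adjusted p = 0.044) and 1.04 (SE 0.18, adjusted p = 0.00042) with the 2 labels. Nrros, counted under its older symbol Lrrc33 and related to GARP as an anchor of latent TGF-beta, was lower by 1.78 on the log2 scale in WT-labelled and by 1.86 in KO-labelled iTreg. Tgfbr2, a signalling receptor chain for the cytokine, was lower in WT-labelled iTreg, with a log2 difference of -0.80 (SE 0.17, adjusted p = 0.0012). Tgfbr1, another receptor chain of the list, went the other way with the WT label. Its means were 185 CPM in nTreg and 343 in iTreg, without overlap.

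Among the secreted cytokines, Ebi3 was lower in iTreg with both labels, and Il10 was called lower with the WT label. IL-10 is an inhibitory cytokine, and EBI3 is the subunit that joins the product of Il12a to form IL-35 and that of Il27 to form IL-27. Il10 (ENSMUSG00000016529.5, chr1:131019845-131024974, plus strand) was at 15.8, 8.78 and 6.79 CPM in nTreg labelled WT and at 7.88, 7.69 and 4.96 in nTreg labelled KO. Its iTreg values were 0.150, 0.753 and 0.0904 CPM (WT label) and 1.04, 7.18 and 0.477 (KO label). The second KO-labelled iTreg library, with 68 reads of the 84 in its group, reached the range of nTreg, while its neighbours did not. The WT-labelled iTreg group held 13 reads in all (95% Poisson interval 6.92 to 22.2), so that its level rests on very little.

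The log2 difference of Il10 between iTreg and nTreg was -4.88 (SE 0.95, adjusted p = 7.3e-04) in WT-labelled cells. In KO-labelled cells it was -1.27 (SE 0.77, adjusted p = 0.17), which did not pass. Without the second KO-labelled iTreg library the latter was -3.19 (SE 0.65, adjusted p = 0.0014), and the call in WT-labelled cells stood with or without that library.

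Ebi3 (ENSMUSG00000003206.7, chr17:55952640-55957022, plus strand) overlaps an antisense gene, and since the strand setting of the counting is not given in the sources used here, its reads may include that gene's. Its levels were 29.5, 25.2 and 19.5 CPM in nTreg labelled WT and 28.7, 24.6 and 19.2 in nTreg labelled KO. In iTreg they were 5.78, 8.21 and 8.95 CPM (WT label) and 6.37, 6.87 and 7.55 (KO label). All iTreg libraries lay below all nTreg libraries. The log2 difference was -1.69 (SE 0.22, adjusted p = 3.1e-05) in WT-labelled cells and -1.80 (SE 0.22, adjusted p = 2.5e-05) in KO-labelled cells. Il12a, the other subunit of IL-35, had no read in any nTreg library and at most 0.477 CPM in iTreg, and was too low to be tested.

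Of 13 partners of IL-10 and IL-35 (receptors, and factors that act on Il10), 11 were tested. In WT-labelled cells 2 were called higher and 8 lower in iTreg (median log2 difference -1.47), and in KO-labelled cells 2 and 7. The shares of all tested genes called were 65.2% and 61.9%. Irf4, a transcription factor of activated T cells, was higher by 2.69 on the log2 scale (SE 0.12, adjusted p = 2.0e-08) in WT-labelled iTreg. Prdm1, which encodes Blimp-1, a factor known to promote Il10 in effector Treg, was lower, with a log2 difference of -3.89 (SE 0.32, adjusted p = 7.5e-07) in WT-labelled and -3.43 (SE 0.31, adjusted p = 2.5e-06) in KO-labelled cells. Il27ra, the receptor chain for IL-27, had a log2 difference of -2.46 and Ahr, a ligand-activated factor that acts on Il10, one of -1.76 in WT-labelled cells. Maf, another factor that promotes Il10, was lower in WT-labelled iTreg, at a mean of 109 CPM beside 239 in nTreg (adjusted p = 0.00019), while in KO-labelled cells the log2 difference was -0.07 (SE 0.18, adjusted p = 0.76).

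**Figure D2:**
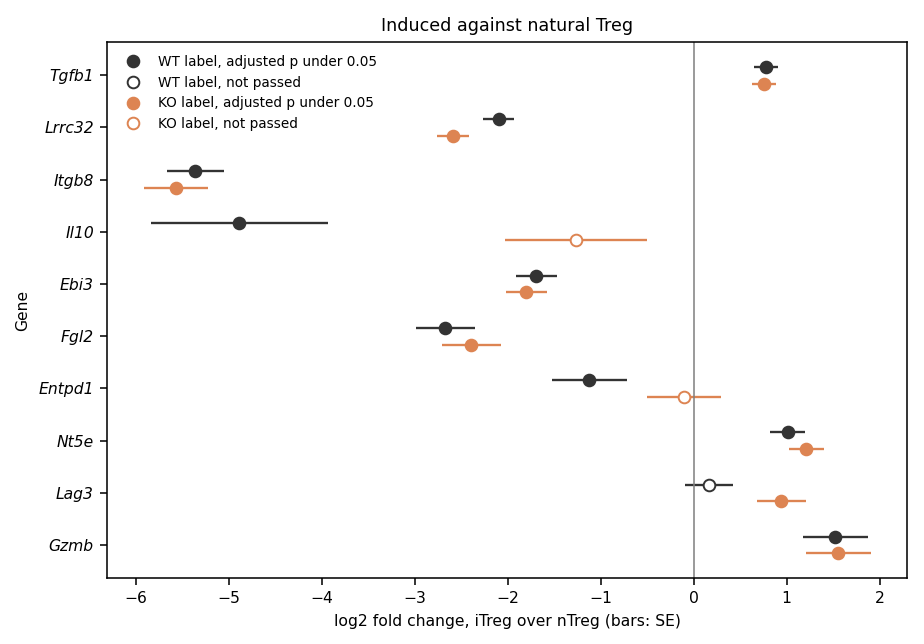
Log2 difference of iTreg against nTreg for the 10 genes, in libraries labelled WT and libraries labelled KO, with bars of 1 standard error. Itgb8 lies lowest with both labels, at -5.36 and -5.57, and Il10 and Entpd1 lie nearer 0 with the KO label than with the WT label.

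FGL2 is a fibrinogen-like protein that Treg secrete and that acts on inhibitory Fc receptors of antigen-presenting cells. Fgl2 (ENSMUSG00000039899.5, chr5:21372642-21378374, plus strand) lies within Ccdc146 on the opposite strand, which had at most 0.148 CPM in nTreg and no read in iTreg. Promoter sequence from RefSeq was found for 7 of the 10 genes, and of these only those of Fgl2 and Gzmb held any of 8 short motifs sought on both strands within 250 bases before to 50 after the gene's start. Both are shown, as the 250 bases before the start on build GRCm38.p6, because the genes moved in opposite directions between the cell types. Capitals mark the motif matches. The Fgl2 stretch is chr5:21372423-21372672 on the plus strand and the Gzmb stretch is chr14:56262335-56262584 on the minus strand, each written 5′ to 3′ along its gene. RefSeq's start differs from the gene start given here from GENCODE: for Fgl2 it is position 21372673, 31 bases inside the GENCODE gene, and for Gzmb it is position 56262334, 74 bases before the GENCODE start. Distances below count from RefSeq's start.
Fgl2: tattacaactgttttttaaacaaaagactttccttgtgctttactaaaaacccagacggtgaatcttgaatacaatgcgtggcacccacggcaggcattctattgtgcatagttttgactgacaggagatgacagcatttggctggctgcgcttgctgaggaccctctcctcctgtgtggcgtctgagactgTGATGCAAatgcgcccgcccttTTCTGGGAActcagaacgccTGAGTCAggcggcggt
Gzmb: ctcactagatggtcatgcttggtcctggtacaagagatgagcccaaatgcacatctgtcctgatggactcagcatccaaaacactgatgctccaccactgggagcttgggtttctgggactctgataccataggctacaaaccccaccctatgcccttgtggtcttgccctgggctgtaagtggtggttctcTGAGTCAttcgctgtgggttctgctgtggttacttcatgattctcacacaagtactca
Fgl2 holds TGATGCAA, a site type bound by ATF4 of the unfolded protein response, 58 bases before the start, a STAT-type TTCNNNGAA 36 bases before it and an AP-1 TGAGTCA 16 bases before it. Gzmb holds TGAGTCA 58 bases before the start and a further TTCNNNGAA 37 bases after it, outside the stretch shown and still before the GENCODE start. Over 32851 promoters of the same 300-base span, 0.895% held the ATF4-type site, 5.2% the AP-1 site and 8.3% the STAT-type site. The other motifs were the endoplasmic reticulum stress element (0.119% of promoters), the unfolded protein response element TGACGTGG (0.676%), the forkhead site TGTTTAC (3.65%), the SMAD site GTCTAGAC (0.213%) and the Blimp-1 site (0.253%). A match describes the letters only.

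Fgl2 was at 41.4, 45.7 and 60.02 CPM in nTreg labelled WT and at 39.6, 48.1 and 45.9 in nTreg labelled KO. In iTreg it was at 8.55, 9.42 and 5.06 CPM (WT label) and at 13.5, 4.96 and 7.15 (KO label). The highest iTreg library was still well below the lowest nTreg library. The log2 difference was -2.67 (SE 0.32, adjusted p = 1.7e-05) in WT-labelled cells and -2.39 (SE 0.32, adjusted p = 4.8e-05) in KO-labelled cells. Macrophages also express Fgl2, and their markers were higher in nTreg than in iTreg, as given above. With the WT label the 3 nTreg libraries had macrophage sums of 58.2, 231 and 98.9 CPM, and with the KO label 44.2, 505 and 97.8 CPM, in the order of the Fgl2 values. The part of these cells in the result was not tested.

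The ectoenzymes CD39 (Entpd1) and CD73 (Nt5e) act in sequence: CD39 removes phosphates from extracellular ATP and ADP, and CD73 turns the resulting AMP into adenosine. Nt5e was higher in iTreg with both labels, whereas Entpd1 was called lower with the WT label, a call that depended on single libraries. Nt5e (ENSMUSG00000032420.8, chr9:88327197-88372092, plus strand) was at 387, 412 and 360.4 CPM in nTreg labelled WT and at 367, 336 and 340.3 in nTreg labelled KO. The iTreg libraries had 966, 647 and 723 CPM (WT label) and 887, 569.9 and 958 (KO label). All iTreg libraries were above all nTreg libraries, with the libraries numbered 2 lowest in iTreg. The log2 difference was 1.011 (SE 0.19, adjusted p = 4.8e-04) in WT-labelled cells and 1.21 (SE 0.19, adjusted p = 1.5e-04) in KO-labelled cells.

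Entpd1 (ENSMUSG00000048120.16, chr19:40612366-40741602, plus strand) was at 55.4, 55.8 and 49.6 CPM in nTreg labelled WT and at 50.4, 60.4 and 52.8 in nTreg labelled KO. Its iTreg values were 28.3, 27.9 and 17.6 CPM (WT label) and 35.6, 95.7 and 22.01 (KO label). The second KO-labelled iTreg library was the highest of all 12, while the other 5 iTreg libraries were below every nTreg library. In WT-labelled cells the log2 difference was -1.12 (SE 0.41, adjusted p = 0.028). That call was lost without nTreg WT replicate 1 or 2 or iTreg WT replicate 2 or 3, with adjusted p from 0.056 to 0.11. DESeq2 and limma voom made the same call (adjusted p = 0.0060 and 0.0024), as did edgeR without the second KO-labelled iTreg library (0.00043). In KO-labelled cells the log2 difference was -0.10 (SE 0.39, adjusted p = 0.84), and without the second KO-labelled iTreg library it was -0.93 (SE 0.23, adjusted p = 0.0043).

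Of 13 other genes that handle extracellular nucleotides and adenosine, 11 were tested. In iTreg 2 were called higher and 6 lower with the WT label (median log2 difference -0.996) and 2 and 7 with the KO label. The shares of all tested genes called were 65.2% and 61.9%. Slc29a1, an equilibrative nucleoside transporter, was higher by 1.92 on the log2 scale (SE 0.16, adjusted p = 1.2e-06) with the WT label. The 2 adenosine receptors tested moved apart. Adora2a was lower, with a log2 difference of -1.85 (SE 0.24, adjusted p = 2.9e-05), whereas Adora2b had no read in nTreg labelled WT and 12.5, 14.1 and 5.33 CPM in iTreg labelled WT, at least 87.2-fold higher against a floor of 3 counts over the nTreg group (adjusted p = 4.3e-06). P2rx7, an ATP-gated channel, was lower, with a log2 difference of -2.87 (SE 0.34, adjusted p = 1.7e-05).

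LAG-3 is an inhibitory receptor that binds MHC class II and is related in structure to CD4. Lag3 (ENSMUSG00000030124.2, chr6:124904361-124911705, minus strand) lies 16139 bases from Cd4 on chromosome 6. It was at 39.6, 44.6 and 36.1 CPM in nTreg labelled WT and at 19.7, 25.96 and 19.7 in nTreg labelled KO. In iTreg it was at 49.7, 54.7 and 30.2 CPM (WT label) and at 31.9, 59.9 and 34.6 (KO label). The nTreg labelled KO stood below all other libraries, and the iTreg values spread around those of nTreg labelled WT. In WT-labelled cells the log2 difference of iTreg against nTreg was 0.17 (SE 0.26, adjusted p = 0.59), and in KO-labelled cells it was 0.94 (SE 0.26, adjusted p = 0.0077), so that Lag3 was called only with the KO label. The difference between the labels in this respect, 0.78 on the log2 scale, did not pass (SE 0.37, adjusted p = 0.69).

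Granzyme B is the protease of cytotoxic granules. Gzmb (ENSMUSG00000015437.5, chr14:56258838-56262260, minus strand) was at 6.79, 14.7 and 21.1 CPM in nTreg labelled WT and at 10.8, 11.03 and 11.98 in nTreg labelled KO. The iTreg libraries had 30.8, 54.9 and 38.9 CPM (WT label) and 26.9, 45.7 and 26.9 (KO label). Every iTreg library was above every nTreg library. The log2 difference was 1.53 (SE 0.35, adjusted p = 0.0021) in WT-labelled cells and 1.56 (SE 0.35, adjusted p = 0.0021) in KO-labelled cells. Markers of NK and CD8 T cells, cell types that also make granzyme B, summed to 39.6 to 49.7 CPM in nTreg and 100 to 169 in iTreg. Of the 7, 6 were tested, and 3 were called higher and 2 lower in iTreg with the WT label, 4 and 2 with the KO label. The shares of all tested genes called were 65.2% and 61.9%. With the WT label the mean of Nkg7 was 20.6 CPM in nTreg and 86.0 in iTreg and that of Klrd1 0.306 and 38.5, whereas that of Klrb1c was 4.24 and 0.0551 and that of Cd8b1 12.8 and 7.60. Ncr1, an NK receptor, was at 0 in all iTreg libraries and in 4 of the 6 of nTreg. The part of these genes in the result was not tested.

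Of 14 other genes of the cytotoxic granule 13 were tested, and 2 were called higher and 5 lower in iTreg with the WT label, and 1 and 4 with the KO label. These are smaller shares than the 65.2% and 61.9% of all tested genes called with the 2 labels. Ctsc, the protease that activates granzymes, was higher by 1.25 on the log2 scale (SE 0.17, adjusted p = 4.9e-05) and Serpinb9, an inhibitor of granzyme B, was lower by 1.27 (SE 0.27, adjusted p = 0.0014) in WT-labelled cells. Of 16 other inhibitory receptors and partners of LAG-3 or FGL2 14 were tested, with 3 called higher and 7 lower in iTreg for each label, beside the same 65.2% and 61.9% of all tested genes. Cd96 and Tigit, receptors for nectin family ligands, had log2 differences of -2.24 and -1.46 with the WT label. Pdcd1, the gene of PD-1, was higher by 0.85 (SE 0.21, adjusted p = 0.0033), and Lgals3, a galectin that binds LAG-3, was higher by 3.21 (SE 0.44, adjusted p = 5.3e-05).

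The order of the 10 genes within a cell, compared as CPM per kilobase of exon, changed between cell types more than between labels. In nTreg labelled WT the highest level was that of Lrrc32 (96.6 CPM per kilobase), followed by Tgfb1 (47.5) and Nt5e (44.9), and the lowest were Il10 (7.98) and Itgb8 (2.22). With the KO label the same 3 genes led nTreg, at 121, 48.5 and 40.4 CPM per kilobase. In iTreg labelled WT Nt5e (90.5) and Tgfb1 (81.6) led, Gzmb (28.9) stood above Lrrc32 (22.6), and Il10 (0.253) and Itgb8 (0.0535) were again last. In iTreg labelled KO the first 5 genes had the same order, and Entpd1 (9.16, a mean that includes its high second library) stood above Ebi3 (6.00).

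**Figure D3:**
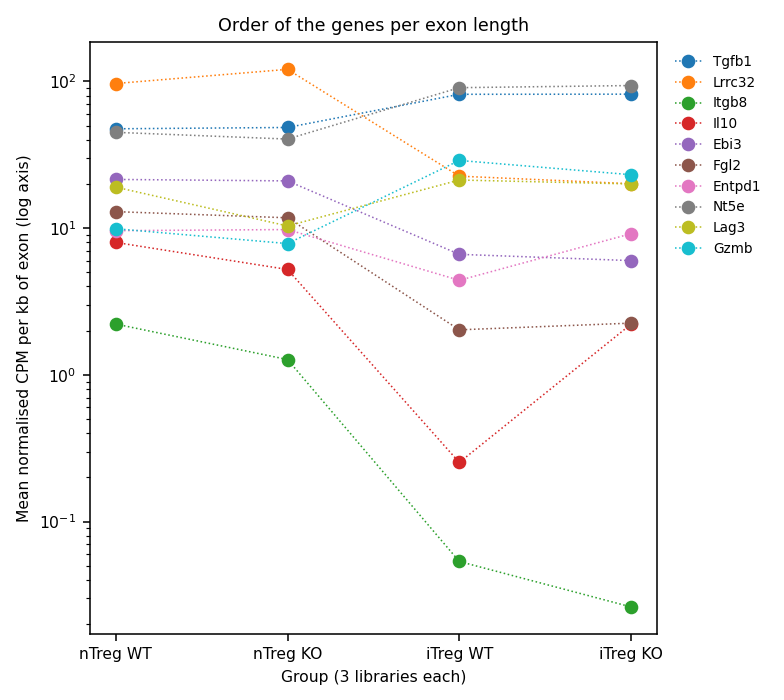
Group mean level of the 10 genes as CPM per kilobase of exon (log axis) in the 4 groups. Dotted lines join the points of a gene and have no other meaning. Lrrc32 leads in nTreg, at 96.6 and 121, and Nt5e in iTreg, at 90.5 and 93.6.

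Within nTreg, no gene was called between the labels: 0 of 10 passed edgeR's test, where 2.53% of all tested genes did. Itgb8 and Lag3 were the 2 of the 10 with an unadjusted p under 0.05, as 13.4% of all tested genes had, and also the 2 whose libraries did not overlap, both lower with the KO label; 14.1% of all tested genes were lower without overlap. DESeq2 and limma voom each called 2 of the 10, the same pair. As the libraries labelled WT and KO that share a number deviated together, a fit that blocks on that number was also run, and it called 3 of the 10, where it called 9% of all tested genes.

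Itgb8 fell from 24.5 ± 2.47 to 14.1 ± 2.49 CPM between the labels in nTreg in that blocked fit (adjusted p = 0.033), while without the block the log2 difference was -0.80 (SE 0.23, adjusted p = 0.12). With DESeq2 the adjusted p was 0.014 and with limma voom 0.0041. For Lag3 the means were 40.1 ± 4.26 and 21.8 ± 3.60 CPM, with a log2 difference of -0.87 (SE 0.26, adjusted p = 0.14; with the block 0.0081; DESeq2 0.030; limma voom 0.011). Leaving out 1 library, the second KO-labelled one of iTreg, also brought Lag3 past the threshold (adjusted p = 0.041). Each KO-labelled library was below each WT-labelled one for both genes. Without both nTreg libraries numbered 2 the log2 differences were -0.83 for Itgb8 and -0.94 for Lag3 (adjusted p = 0.61 and 0.52 with 2 libraries a group).

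B cell markers also moved with the label in nTreg, summing to 28.1 to 33.7 CPM with the WT label and 16.5 to 17.2 with the KO label, and their part in these results was not tested. Of the 6 markers 2 were tested. Cd22 was called lower with the KO label, with means of 13.2 and 3.78 CPM (log2 difference -1.80, SE 0.33, adjusted p = 0.010), and Cd79b, at 16.01 and 11.4 CPM, did not pass (log2 difference -0.48, SE 0.38, adjusted p = 0.63). Cd4, the neighbour of Lag3, had a log2 difference of -0.41 (SE 0.15, adjusted p = 0.23; with the block 0.019).

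Lrrc32 was the third gene that the blocked fit called. Its means were 453 ± 92.5 CPM with the WT label and 566 ± 50.2 with the KO label, the groups overlapped, and the log2 difference was 0.32 (SE 0.16, adjusted p = 0.41; with the block 0.039). In each numbered pair the KO-labelled library was the higher one.

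The other genes differed little between the labels in nTreg relative to their spread. The log2 difference of Tgfb1 was 0.03, with a 95% interval from -0.25 to 0.31, that of Ebi3 -0.03 (-0.48 to 0.43) and that of Nt5e -0.15 (-0.56 to 0.25). Those of Fgl2, at -0.14 (-0.78 to 0.50), and Entpd1, at 0.03 (-0.83 to 0.89), leave room for changes in either direction. So does that of Gzmb, at -0.36 (-1.13 to 0.42), and Il10 was the least precise of the 10, at -0.60 (-2.19 to 0.99). Gzmb and Il10 each varied more than 2-fold among the WT-labelled libraries alone.

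**Figure D4:**
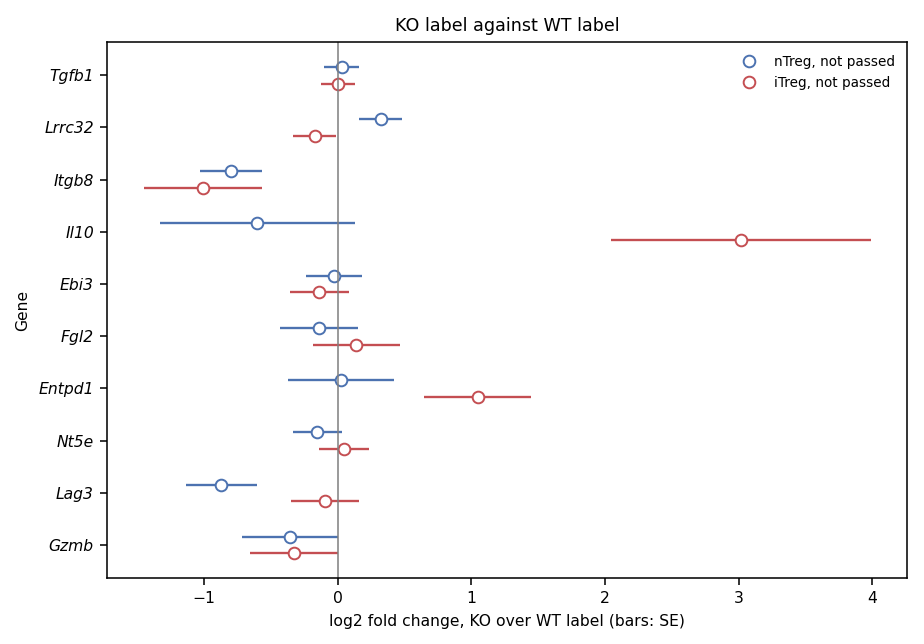
Log2 difference of libraries labelled KO against those labelled WT for the 10 genes, in nTreg and in iTreg, with bars of 1 standard error. In nTreg Lag3 and Itgb8 lie lowest, at -0.87 and -0.80, and in iTreg Il10 lies highest, at 3.02, with the widest bar.

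Among the other genes of these routes in nTreg, 3 were called between the labels, where 2.53% of all tested genes were. The lists held 12, 11, 11, 13 and 14 tested genes in the order above. Enpp1, an ectoenzyme that makes AMP from ATP and from cyclic dinucleotides, rose in nTreg labelled KO: 27.5, 27.3 and 27.5 CPM in the WT-labelled libraries became 53.1, 53.3 and 51.04 in the KO-labelled ones (log2 difference 0.93, SE 0.22, adjusted p = 0.040). The call was lost whichever of the 6 nTreg libraries was left out, with adjusted p up to 0.17, while the log2 difference stayed between 0.93 and 0.95. In iTreg Enpp1 was at 2.78, 3.01 and 5.69 CPM and 5.84, 7.71 and 9.22, with a log2 difference of 1.008 (SE 0.25, adjusted p = 0.23; with the block 0.020).

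Tigit and Cd96, of the inhibitory receptors, fell in nTreg labelled KO. Tigit stood at 93.1, 101 and 83.5 CPM under the WT label, beside 53.2, 58.6 and 58.2 under the KO label (log2 difference -0.70, SE 0.13, adjusted p = 0.011), and Cd96 at 258, 230.4 and 236 CPM (WT label) and 159, 145 and 148 (KO label; log2 difference -0.68, SE 0.15, adjusted p = 0.032). No library of 1 label overlapped the other label for either gene. Cd96 lost its call whichever of the 6 nTreg libraries was left out (adjusted p up to 0.15), and leaving out WT replicate 1 or 2 or KO replicate 1 ended the call of Tigit (up to 0.068). With any 1 of the 12 libraries left out the log2 difference stayed between -0.72 and -0.63 for Cd96 and between -0.77 and -0.64 for Tigit. The median log2 difference of the 14 tested genes of that list was -0.32, beside 0.01 over all genes. The blocked fit called 4 of them lower, among them Pdcd1 (adjusted p = 0.033) and Btla (adjusted p = 0.047), where it called 9% of all tested genes. The 7 Treg and CD4 T cell markers had a median log2 difference of -0.27 in the same comparison. Of these Cd3g was called lower, from a mean of 519 to 365 CPM (log2 difference -0.51, SE 0.11, adjusted p = 0.032), and Cd3e, at 575 and 478 CPM, did not pass (adjusted p = 0.26). Il2ra went the other way, from a mean of 838 to 1164 CPM without overlap, though edgeR did not call it. Foxp3 had means of 621 and 616 CPM and Ctla4 of 605 and 592. The blocked fit called 1 of the 7 higher and 2 lower, beside 9% of all tested genes. The part of these markers in the list's values was not tested. The TGF-beta list, the IL-10 and IL-35 list and the granule list had 0 called genes in nTreg by edgeR, and 2 of 12, 3 of 11 and 0 of 13 with an unadjusted p under 0.05, beside the 13.4% of all tested genes. DESeq2 called 0, 1 and 0 of them, and limma voom 1, 1 and 0. With the block Itgav, the partner chain of Itgb8, was called lower (log2 difference -0.49, adjusted p = 0.0063; without the block 0.26), as was Il27ra (-0.43, adjusted p = 0.023; without the block 0.17).

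In iTreg 0 of the 10 genes were called between the labels, where 0.183% of all tested genes were, and the libraries of the labels overlapped for all 10, while 9.63% of all tested genes had no overlap. Il10 and Entpd1 had an unadjusted p under 0.05, as 7.56% of all tested genes had, and DESeq2 and limma voom called 0. The log2 difference of Il10 was 3.02 (SE 0.97, adjusted p = 0.45), from 0.331 ± 0.367 to 2.90 ± 3.72 CPM, and the blocked fit called it (adjusted p = 0.0087, where 0.947% of all tested genes were called). Without the second KO-labelled library it was 1.09 (SE 0.77, adjusted p = 0.86), and without both iTreg libraries numbered 2 it was 2.48 (SE 0.81, adjusted p = 0.89) on 3 reads in the 2 remaining WT-labelled libraries. Entpd1 had a log2 difference of 1.05 (SE 0.40, adjusted p = 0.55), and 0.22 (SE 0.22, adjusted p = 0.91) without that library. That library was the highest of the 6 for both genes.

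The remaining genes in iTreg had small or imprecise differences between the labels. Those of Tgfb1, at 0.00 (-0.28 to 0.28), Nt5e, at 0.05 (-0.35 to 0.45), and Lrrc32, at -0.17 (-0.52 to 0.18), had the narrowest 95% intervals. Lag3, which was lower with the KO label in nTreg by the fits named above, had a log2 difference of -0.09 (-0.65 to 0.46) in iTreg. Ebi3, Fgl2 and Gzmb were at -0.14, 0.14 and -0.33, with standard errors of 0.22 to 0.33. Itgb8, with 22 and 9 reads in the groups, had a log2 difference of -1.01 with a 95% interval from -1.97 to -0.049. That interval comes from the spread between libraries, while edgeR holds p at or above that of counting error alone, and the unadjusted p was 0.058 (adjusted p = 0.68).

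Whether the label acted differently in the 2 cell types was tested as the effect in iTreg minus that in nTreg. By edgeR 0 of the 10 genes passed, where 0.291% of all tested genes did; 1, Il10, had an unadjusted p under 0.05, as 7.44% of all tested genes had, and DESeq2 and limma voom called 0. The difference was 3.62 for Il10 (SE 1.22, adjusted p = 0.42), with an adjusted p of 0.0077 in the blocked fit, which called 1.8% of all tested genes. It was 1.69 (SE 0.90, adjusted p = 0.58) without the second KO-labelled iTreg library. Lrrc32 differed by -0.49 (SE 0.23, adjusted p = 0.67) and Entpd1 by 1.02 (SE 0.56, adjusted p = 0.79).

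Of the other genes of these routes none was called by edgeR in iTreg between the labels or for the difference of effects. Over the 5 lists taken in the order above, with 12, 11, 11, 13 and 14 genes tested, 1, 2, 3, 1 and 1 genes had an unadjusted p under 0.05 in iTreg, beside 7.56% of all tested genes, and DESeq2 called Maf and Enpp1 there. For the difference of effects 2, 1, 1, 0 and 1 genes had one, beside 7.44%, and DESeq2 called Maf. Limma voom called 0 in either. Maf was at 127, 79.02 and 121 CPM in iTreg labelled WT and at 153, 177 and 219 in iTreg labelled KO, without overlap (log2 difference 0.75, SE 0.18, adjusted p = 0.23; DESeq2 0.017). In nTreg it was at 225, 232 and 259 and 163, 212 and 200.3 CPM, so that the difference of effects was 1.06 (SE 0.26, adjusted p = 0.17; with the block 0.044). Ahr had a log2 difference of 0.62 in iTreg (adjusted p = 0.37; with the block 0.038).

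Genes whose log2 CPM followed those of the 4 most variable of the 10 were sought over the 12 libraries, among 8599 or 8600 genes whose mean log2 CPM was 3 or more. The most like Itgb8 were Plekhg2 (r = 0.994), Pbxip1 and Gltscr1 (both 0.993), and 1411 genes had r over 0.9, as most of that pattern is the step between nTreg and iTreg. Fgl2 was followed by Mon2 (r = 0.988), and Lrrc32 by Atp8a1 (r = 0.989), with 953 and 1265 genes over 0.9. For Il10 58 genes had r over 0.9, led by Vasp (r = 0.98), Esrra (0.973) and Folr4 (0.961). Few reads stand behind its iTreg values, with 13 in the WT-labelled group. Of the 84 in the KO-labelled group, 68 came from the second library. All these correlations are descriptions over libraries that share their cell type.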

How the data were processed

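The authors deposited raw read counts per gene symbol, 1 file per library. The submitters' processing notes name STAR, cutadapt 1.13, DESeq2 and HTSeq 0.6.1p1, with mm10 as the build; their roles, the gene annotation and the strand setting are not given in the sources used here. The deposited counts were joined by symbol. No 2 libraries held identical values.

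Genes were kept by edgeR's filter (minimum count 10, minimum total 15), which left 12038, and tested with edgeR 4.0.16 in R 4.3.3 (TMM, robust quasi-likelihood, 1 term per group over 12 libraries, 8 residual degrees of freedom, Benjamini-Hochberg adjustment over all tested genes). Compared were the labels KO and WT within each cell type, the difference of both effects, and iTreg against nTreg with each label. The test was tried on simulated data first, where it recovered 50.7% of 2-fold changes between the labels in nTreg and 62.7% in iTreg. For the difference of effects it recovered 28.4%, so a gene that was not called may still differ. DESeq2 1.42.0, limma 3.58.1 (voom) and the other alternatives are described in the closing section. Depth, from 6763458 to 15462894 counts per library, limits Il10 and Itgb8 in iTreg most.

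Deviations from group means correlated between WT- and KO-labelled libraries of the same number at 0.438 to 0.572 in nTreg and 0.307 to 0.629 in iTreg. For libraries of other numbers the values were -0.421 to -0.054 in nTreg and -0.519 to 0.135 in iTreg. As deviations within a group sum to 0, these 2 sets of values are not independent. The pairing by number was read from the data and is not stated in the labels. Between nTreg and iTreg the correlations at the same number were -0.054 to 0.095. The block on the number within each cell type leaves 4 residual degrees of freedom.

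The 10 genes and the lists of related genes were chosen with earlier results of these data known. All 10 are named in every comparison, and of each list up to 4 genes of smallest p and those called were eligible to be named. Other cell types were judged by fixed marker lists. Dendritic cell markers summed to 0.951 to 6.65 CPM and plasma cell markers to 1.13 to 29.7 CPM per library. Coordinates and exon lengths are from GENCODE M21 (mm10) and promoters from RefSeq (GRCm38.p6). Figures were drawn with matplotlib 3.10.9.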

Additional observations from a re-analysis of the deposited data

How the results depend on the processing

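The alternatives tried were RLE size factors, testing without a filter on low counts, a stricter filter (CPM of at least 5 in 3 libraries), DESeq2, limma voom with quality weights, a replicate block, a fit of the compared groups only, leaving out each library in turn, leaving out both nTreg libraries numbered 2, and leaving out the 3 libraries with Xist (1 each of nTreg WT, nTreg KO and iTreg WT). Leaving out both iTreg libraries numbered 2 was chosen after seeing the data. Over 50 values of the 10 genes, 7 gained and 1 (Entpd1 in WT-labelled cells) lost a call under some alternative. The 9 and 8 genes called between iTreg and nTreg stayed within 1.5 times those counts in every setting run.

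KO against WT label in nTreg called 0 of the 10 genes and 304 of all genes. With the replicate block it called 3 and 1083, with DESeq2 2 and 496, with limma voom 2 and 1072, with the 6 compared libraries alone 2 and 1142, and without both iTreg libraries numbered 2 it called 2 and 479. Without both nTreg libraries numbered 2 it called 103 of all genes and without those with Xist 71. Leaving out 1 library gave 0 to 1 of the 10 and 167 to 432 of all. In iTreg it called 0 and 22: with the replicate block 1 and 114, with DESeq2 99 of all, with the 6 libraries alone 0, without both nTreg libraries numbered 2 it was 7, without those with Xist 0, without both iTreg libraries numbered 2 it was 1, and leaving out 1 library 0 to 64. The difference of effects called 0 and 35: with the replicate block 1 and 217, with DESeq2 140 of all, with limma voom 98, without both nTreg libraries numbered 2 it was 1, without those with Xist 1, and leaving out 1 library 1 to 58. The causes were not tested. Il10 and Itgb8 had too few reads to be kept in the fit of iTreg libraries alone. Of 25 counts over the lists of related genes, 9 moved by more than 1.5 times in some setting.

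Values that changed sign were called neither with all libraries nor in the setting that turned them. In nTreg these were Tgfb1 (RLE -0.0029, DESeq2 -0.0030, without nTreg libraries numbered 2 -0.026), Entpd1 (-0.0047, -0.0070 and -0.023 in the same order, without Xist libraries -0.0026), Gzmb (without Xist libraries 0.017) and Fgl2 (without them 0.012). In iTreg they were Tgfb1 (stricter filter -0.0040, limma voom -0.044, replicate block -0.0023, without iTreg libraries numbered 2 -0.014), Nt5e (without Xist libraries -0.071) and Lag3 (without them 0.074). For the difference they were Tgfb1 (RLE 0.0047, no filter 0.010, DESeq2 0.0044, without nTreg libraries numbered 2 0.027, without Xist libraries 0.032) and Gzmb (limma voom -0.21, replicate block -0.048, without nTreg libraries numbered 2 -0.0071, without Xist libraries -0.089, without iTreg libraries numbered 2 -0.013). Lag3 between the WT-labelled cell types was -0.077 without Xist libraries. With 1 library left out at a time, these and a few others crossed 0. In nTreg the range was Tgfb1 from -0.012 to 0.055, Ebi3 from -0.18 to 0.12, Entpd1 from -0.051 to 0.081, Gzmb from -0.68 to 0.062, Fgl2 from -0.25 to 0.033. In iTreg the range was Tgfb1 from -0.095 to 0.13, Nt5e from -0.098 to 0.25, Lag3 from -0.43 to 0.073, Fgl2 from -0.34 to 0.40. For the difference the range was Tgfb1 from -0.12 to 0.098, Ebi3 from -0.28 to 0.040, Gzmb from -0.39 to 0.35, Fgl2 from -0.19 to 0.54, Itgb8 from -0.54 to 0.017. Between the WT-labelled cell types the range was Lag3 from -0.0017 to 0.38. Between the KO-labelled cell types the range was Entpd1 from -0.93 to 0.26.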
